A study of Mus musculus with 9 samples.

Results

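Genes of G protein and cyclic AMP signalling were followed in the forebrain of mice given clozapine, haloperidol or no drug. They were taken by their platform gene symbol, as the probe sets with exactly 1 symbol that begins with Gna, Gnb, Gng, Adcy, Rgs, Prkac or Prkar, or with Pde and a digit. Gnb2l1 and the Adcyap genes were left out. This gave 64 genes of 8251 with a single symbol on the array, with 1 probe set kept per gene, that of highest 9-array average. They comprised 15 G alpha, 5 G beta and 7 G gamma symbols, 7 adenylyl cyclases, 5 subunits of the cyclic AMP-dependent protein kinase (PKA), 12 Pde symbols and 13 regulators of G protein signalling (RGS). The prefix also took in Gnasas1, a transcript antisense to Gnas, and Pde4dip, a scaffold protein that is no phosphodiesterase.

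When a receptor is activated, the G alpha subunit exchanges GDP for GTP and parts from its beta and gamma partners. Alpha subunits of the stimulatory class switch on adenylyl cyclases, which make cyclic AMP, and those of the inhibitory class hold them back. Cyclic AMP frees the catalytic subunits of PKA from the regulatory ones, phosphodiesterases break cyclic AMP or cyclic GMP down, and RGS proteins speed up GTP hydrolysis on the alpha subunit. In the forebrain these proteins carry the signals of dopamine, serotonin, acetylcholine and opioid receptors, several of which bind antipsychotic drugs.

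The study set the expression profiles of both drugs after long treatment beside that of untreated brain. The clozapine group received 12 mg/kg/day and the haloperidol group 1.6 mg/kg/day in the drinking water for 4 weeks, and the controls received no drug. Male C57BL mice labelled as 4 weeks of age, kept in single cages and given 2 weeks to settle, made up all 3 groups. Each group held 10 animals, of which 3 selected ones were hybridised to Affymetrix U74Av2 arrays without pooling, 1 animal per array. Sample descriptions and the series text give the right hemisphere and the tissue entry the left forebrain, so the side was not settled. The doses differ between the drugs, and forebrain tissue of many regions was homogenised, so fewer cells of a type and less RNA per cell cannot be told apart.

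Values are log2 probe set values as deposited, and differences are in log2 units with standard errors (SE, n = 3 per group) from limma fitted to 7453 probe sets. Levels of different probe sets are not comparable with each other, and each gene is compared only with itself across arrays. A gene entered the tests if its 9-array average lay above 3.448, the 40th percentile, and 50 of the 64 genes did. Some arrays stood apart. In haloperidol 3 the summed level of 5 pituitary markers, of which 1 passed the filter, was 13.43, against 4.88 to 5.11 in the other 8 arrays. Averaged over the Actb and Gapdh controls, signal at the 3' end exceeded that at the 5' end by 1.73 in control 3 and by 0.81 to 1.46 in the other arrays. In control 3 the 3' and 5' sets read 12.76 and 10.03 for Actb and 12.56 and 11.82 for Gapdh. In haloperidol 2 the 18S ribosomal RNA probe sets reached 8.97 to 10.88, against at most 2.83 in the controls.

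No gene of the family passed an adjusted p of 0.05 in any comparison. With clozapine against control, limma called 0 of the 50 genes at that threshold (0.0% of all probe sets), and unadjusted p was under 0.05 for 0 (0.939% of all probe sets). With haloperidol against control the counts were again 0 (0.0%) and 0 (9.12%), and for clozapine against haloperidol 0 (0.0%) and 0 (3.64%). The lowest adjusted p of a member was 1.0, 0.53 and 0.915 in the 3 comparisons, and the F test over the 3 treatments called 0 of 7453 probe sets (0.0%), with 251 below 0.05 before adjustment (3.37%). The plot of differences by family shows each estimate with its error.

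**Figure D1:**
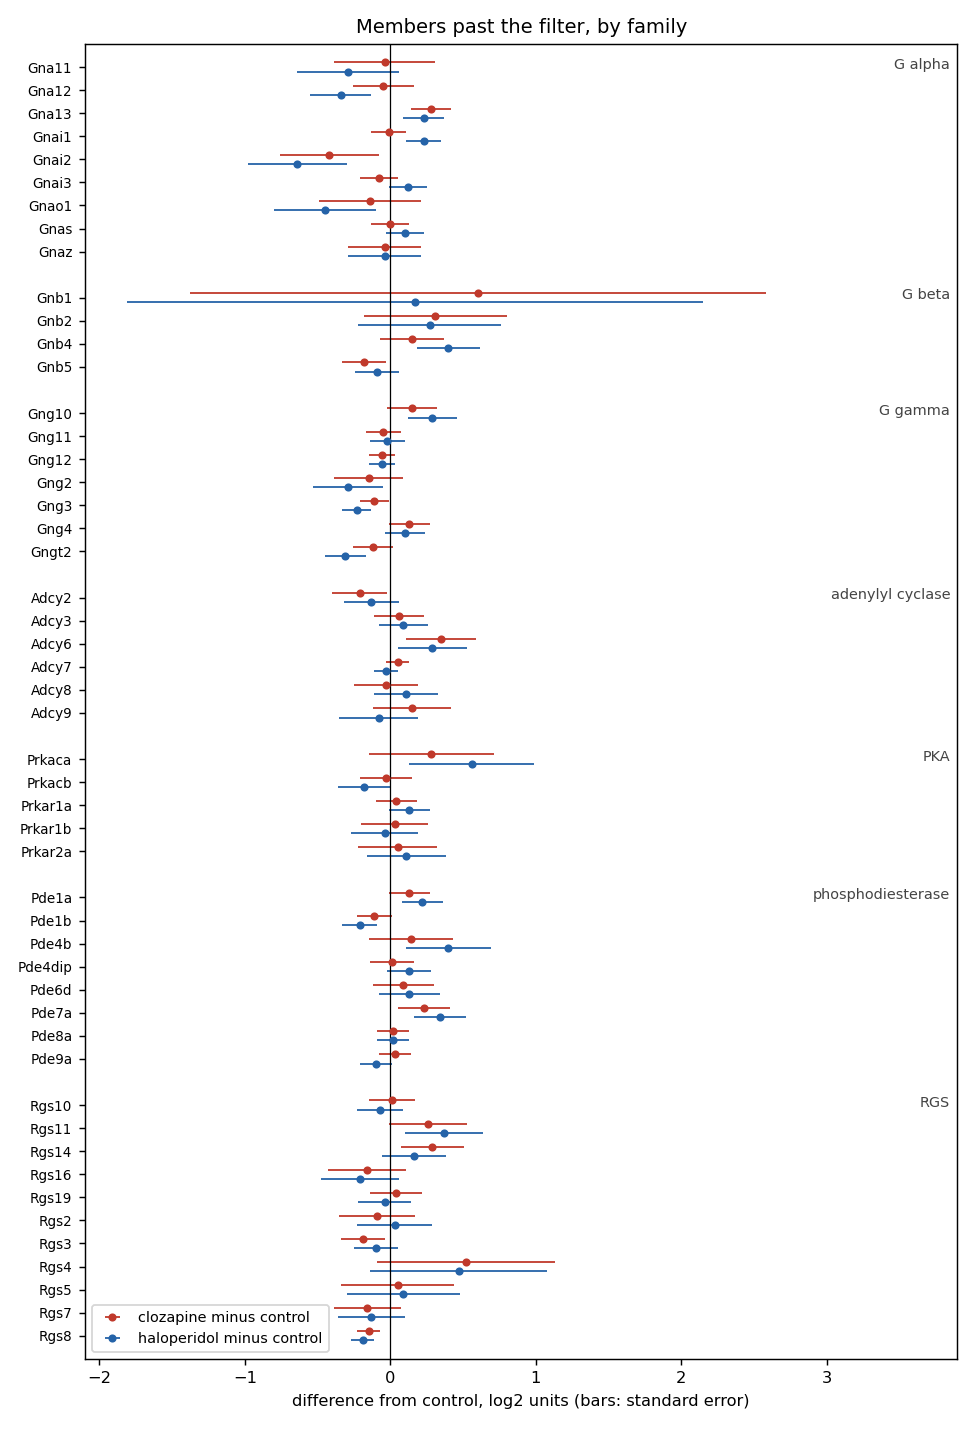
Difference from control in log2 units for the 50 genes past the filter, grouped by family, with clozapine drawn above haloperidol for each gene. Points are limma estimates and bars are standard errors. The estimates run from -0.42 to 0.60 with clozapine and from -0.64 to 0.56 with haloperidol, and Gnb1 has by far the longest bars.

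With clozapine 27 genes lay above and 23 below the controls, with a median of 0.02, beside a median of -0.00125 over all probe sets, of which 49.5% lay above. With haloperidol 26 lay above and 24 below, with a median of 0.02, beside -0.0185 over all probe sets, of which 46.4% lay above. The haloperidol split was sensitive to scaling, and 36 lay above and 14 below once each array was centred on its median, which moved the median of all probe sets to 0.085. Both drugs are compared with the same 3 control arrays. Of the 50 genes, 41 lay within 0.25 of the controls with clozapine and 35 with haloperidol, and the median SE of a difference was 0.182. Over all 7453 probe sets, 6653 and 5761 lay within that distance, a larger share than of the 50 genes with each drug. Leaving out 1 array in turn turned the sign or moved the difference by over 1.5 times in 48 of the 50 genes with clozapine and 46 with haloperidol.

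Among the G alpha genes, the inhibitory subunit genes Gnai1 and Gnai2 had the lowest p-values under haloperidol. Gnai1 had values of 10.15, 10.01 and 9.67 with clozapine, 10.17, 10.16 and 10.21 with haloperidol and 9.98, 9.97 and 9.90 in controls. The 3 haloperidol arrays lay above all 3 controls and above all 3 clozapine arrays, while the clozapine arrays spread to both sides of the controls. The haloperidol difference was 0.23 ± 0.12 (limma adjusted p = 0.573), a fold of 1.17, the clozapine difference was -0.01 ± 0.12, and clozapine minus haloperidol was -0.24 ± 0.12 (adjusted p = 0.915). A second Gnai1 probe set gave 0.45 with haloperidol and 0.21 with clozapine, and read 8.05, 7.26 and 5.59 in controls 1 to 3.

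Gnai2 read 10.33, 10.77 and 11.03 with clozapine, 10.68, 10.74 and 10.04 with haloperidol and 10.40, 11.55 and 11.44 in controls. Control 1 lay among the drug-treated arrays, so the groups overlapped, and the differences were -0.42 ± 0.34 with clozapine and -0.64 ± 0.34 with haloperidol (limma adjusted p = 0.577). The Gnai2 differences widened to -0.783 for clozapine and -1.01 for haloperidol without control 1, and shrank to -0.211 and -0.433 without control 2. The chosen Gnai2 probe set carries the suffix by which Affymetrix marks sets shared within a sequence family. The other Gnai2 probe sets gave -0.41 and -0.11 with clozapine and -0.42 and -0.07 with haloperidol, all on the same side. Gnai3, the third of the inhibitory subunits, had 4.95, 4.96 and 4.76 with clozapine, 5.34, 4.87 and 5.04 with haloperidol and 5.01, 4.94 and 4.96 in controls, with differences of -0.08 ± 0.13 for clozapine, 0.12 ± 0.13 for haloperidol and -0.19 ± 0.13 between the drugs. Clozapine 3 was its lowest array and haloperidol 1 its highest.

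Gna13, an alpha subunit of the class it forms with Gna12, was the 1 gene of the 50 whose clozapine arrays did not overlap the controls, a share of 2.0% where 3.43% of all probe sets did so, 1.27% above and 2.16% below. It had 7.74, 7.82 and 7.85 with clozapine, 7.44, 7.96 and 7.87 with haloperidol and 7.41, 7.65 and 7.52 in controls. Every clozapine array lay above every control, and with haloperidol 1 array lay among the controls. The differences were 0.28 ± 0.14 for clozapine (limma adjusted p = 1.0) and 0.23 ± 0.14 for haloperidol, whereas the second Gna13 probe set gave -0.16 and -0.06.

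The other G alpha genes had wider or smaller differences. Gnas, the stimulatory subunit that activates adenylyl cyclase, had 12.89, 12.85 and 12.72 with clozapine, 12.75, 13.01 and 13.01 with haloperidol and 13.02, 12.83 and 12.62 in controls. These arrays overlapped throughout, with differences of -0.00384 ± 0.13 for clozapine and 0.10 ± 0.13 for haloperidol (95% confidence interval -0.19 to 0.39). Gnao1, the abundant alpha subunit of neurons, had 10.23, 11.30 and 11.02 with clozapine, 10.80, 10.82 and 10.01 with haloperidol and 10.64, 10.87 and 11.46 in controls. Its arrays also overlapped, and differences of -0.14 ± 0.35 and -0.45 ± 0.35 for clozapine and haloperidol stood beside 0.37 and 0.69, -0.17 and -0.52, and 0.35 and 0.19 in its other probe sets past the filter. Gna12, a relative of Gna13, had 8.24, 7.46 and 7.87 with clozapine, 7.62, 7.40 and 7.68 with haloperidol and 8.01, 8.12 and 7.60 in controls, and the clozapine minus haloperidol difference was 0.29 ± 0.21 (limma adjusted p = 0.982). It differed from control by -0.05 with clozapine and -0.34 with haloperidol, whereas the second Gna12 probe set gave 0.65 and 0.13. Over the 9 G alpha genes past the filter, clozapine put 1 above and 8 below the controls, at a median of -0.04. With haloperidol 4 lay above and 5 below, with a median of -0.04 that was 0.059 with centred arrays and 0.077 after quantile normalization.

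Among the beta and gamma genes, Gnb1, which encodes a widely expressed beta subunit, split the arrays across the treatments. Its chosen probe set, the highest of 3, had 7.40, 10.54 and 6.18 with clozapine, 5.45, 11.31 and 6.06 with haloperidol and 5.61, 5.97 and 10.73 in controls. Clozapine 2, haloperidol 2 and control 3 lay between 10.54 and 11.31 and the other 6 arrays between 5.45 and 7.40, so that each treatment held 1 array at the high level. The treatment differences of 0.60 ± 1.98 for clozapine and 0.17 ± 1.98 for haloperidol came with the widest errors of the 50 genes. Its residual standard deviation of 2.81 ranked 1 among the 7453 probe sets tested, and no other probe set separated these 3 arrays from the rest by over 3 log2 units.

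The other Gnb1 probe sets followed this split in part. In the set with the next higher average the values were 6.89, 7.77 and 5.34 with clozapine, 5.38, 8.86 and 6.42 with haloperidol and 6.56, 5.14 and 6.91 in controls, and the same 3 arrays were the highest, with control 3 at 6.91 just above clozapine 1 at 6.89. In the remaining set the values were 5.39, 5.72 and 5.68 with clozapine, 5.70, 5.55 and 5.35 with haloperidol and 5.52, 5.85 and 6.33 in controls, where control 3 was highest and clozapine 2 and haloperidol 2 lay among the rest. The same 3 arrays were also the highest in 5 of 6 control probe sets that read the reverse strand of Actb and Gapdh. In the middle reverse-strand set of Gapdh they lay between 6.84 and 7.73, against 4.86 to 5.51 in the other 6 arrays. The part of such reverse-strand signal in the Gnb1 values was not tested.

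**Figure D2:**
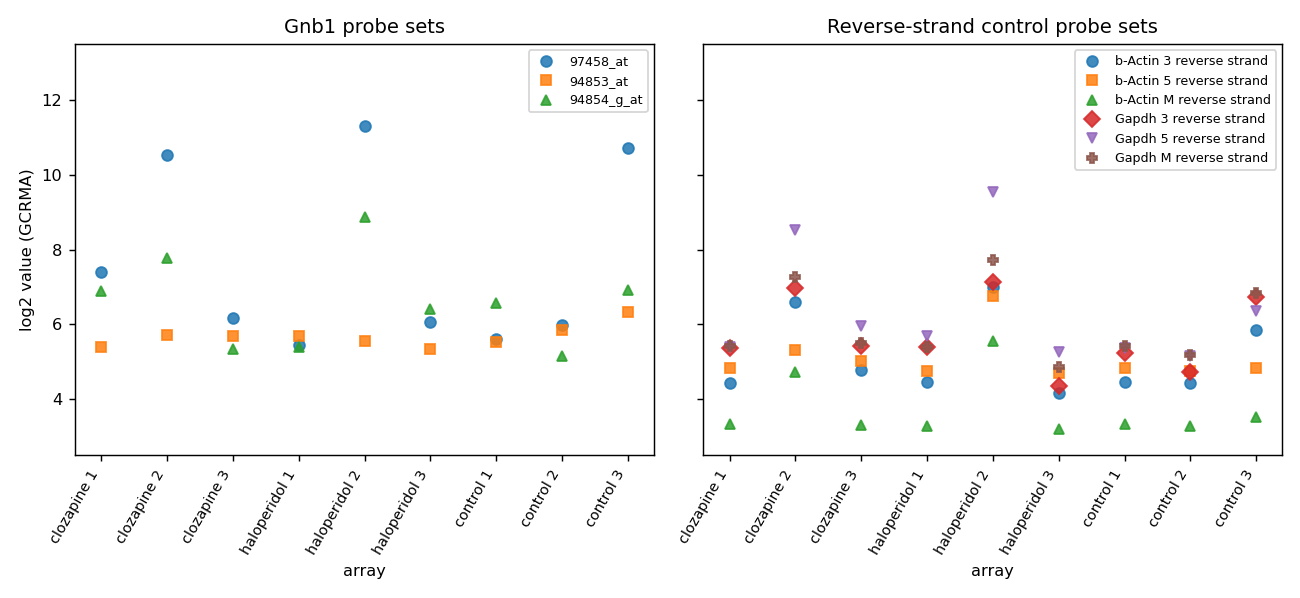
Log2 values of the 3 Gnb1 probe sets (left) and of the 6 reverse-strand control probe sets of Actb and Gapdh (right) in each of the 9 arrays, 1 symbol per array. Clozapine 2, haloperidol 2 and control 3 stand between 10.54 and 11.31 in the chosen set (circles, left), and the same arrays are the highest in 5 of the 6 control sets.

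Among the remaining beta genes, Gnb2 and Gnb4 rested largely on single arrays. Gnb2 had 9.73, 9.16 and 9.13 with clozapine, 8.97, 9.45 and 9.48 with haloperidol and 9.94, 9.36 and 7.79 in controls. Control 3 lay 1.18 below the lowest of the other 8 arrays, and the differences of 0.31 ± 0.49 for clozapine and 0.27 ± 0.49 for haloperidol became -0.31 and -0.35 without it. Gnb4 had 4.98, 4.79 and 4.44 with clozapine, 4.70, 4.87 and 5.38 with haloperidol and 4.87, 4.43 and 4.46 in controls, with haloperidol 3 the highest array. The haloperidol difference was 0.40 ± 0.22 (limma adjusted p = 0.587), and 0.20 without haloperidol 3. Gnb5, the beta subunit that partners RGS proteins of the Rgs7 group, had 8.26, 8.40 and 8.56 with clozapine, 8.80, 8.34 and 8.36 with haloperidol and 8.50, 8.56 and 8.72 in controls, and clozapine and haloperidol differed from control by -0.18 ± 0.15 and -0.09 ± 0.15. The 4 beta genes had 3 above and 1 below with each drug, at medians of 0.23 with clozapine and 0.22 with haloperidol. Without control 3 these medians were -0.015 and 0.155.

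Gamma subunits anchor the beta-gamma pair to the membrane. In 3 of the 7 gamma genes (42.9%) haloperidol arrays and controls had no overlap, beside 21.7% of all probe sets. Haloperidol arrays lay above the controls in 1 of them (2.29% of all probe sets) and below in 2 (19.4%). Gng3, a gamma subunit of neurons, had 9.62, 9.58 and 9.61 with clozapine, 9.54, 9.44 and 9.48 with haloperidol and 9.93, 9.64 and 9.59 in controls. The haloperidol arrays were the 3 lowest, the clozapine arrays lay next to the lower controls, and control 1 stood above all others. Its differences were -0.11 ± 0.10 for clozapine and -0.23 ± 0.10 for haloperidol (limma adjusted p = 0.53), and 0.12 ± 0.10 between the drugs. Without control 1 the Gng3 differences were -0.009 for clozapine and -0.128 for haloperidol, and without control 3 they were -0.18 and -0.299.

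Gngt2, the gamma subunit of cone transducin, had 4.07, 4.37 and 4.12 with clozapine, 3.99, 4.03 and 3.97 with haloperidol and 4.12, 4.20 and 4.59 in controls. The haloperidol arrays again lay below both other groups, at a difference of -0.31 ± 0.14 (limma adjusted p = 0.532), and clozapine differed from control by -0.12 ± 0.14. Control 3 was the highest array, and without it the Gngt2 differences were 0.024 for clozapine and -0.167 for haloperidol. Haloperidol arrays lay wholly below the controls in 19.4% of all probe sets. Gng10, a widely expressed gamma subunit, had 9.03, 8.96 and 9.54 with clozapine, 9.54, 9.17 and 9.23 with haloperidol and 9.07, 9.03 and 8.98 in controls, and its haloperidol arrays lay above the controls at 0.29 ± 0.17 (adjusted p = 0.614).

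Over all 50 genes, 2 had haloperidol arrays wholly above the controls (2.29% of all probe sets) and 3 wholly below (19.4%), which together is 10.0% against 21.7% of all probe sets. These 5 were Gnai1, Gng10, Gng3, Gngt2 and Rgs8. Between the drugs, 3 genes did not overlap, 6.0% against 17.1% of all probe sets. Gng3 and Gngt2 had clozapine wholly above haloperidol and Gnai1 wholly below. The 7 gamma genes had 2 above and 5 below the controls with each drug, with medians of -0.06 with clozapine and -0.06 with haloperidol. With centred arrays the haloperidol median was 0.039.

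**Figure D3:**
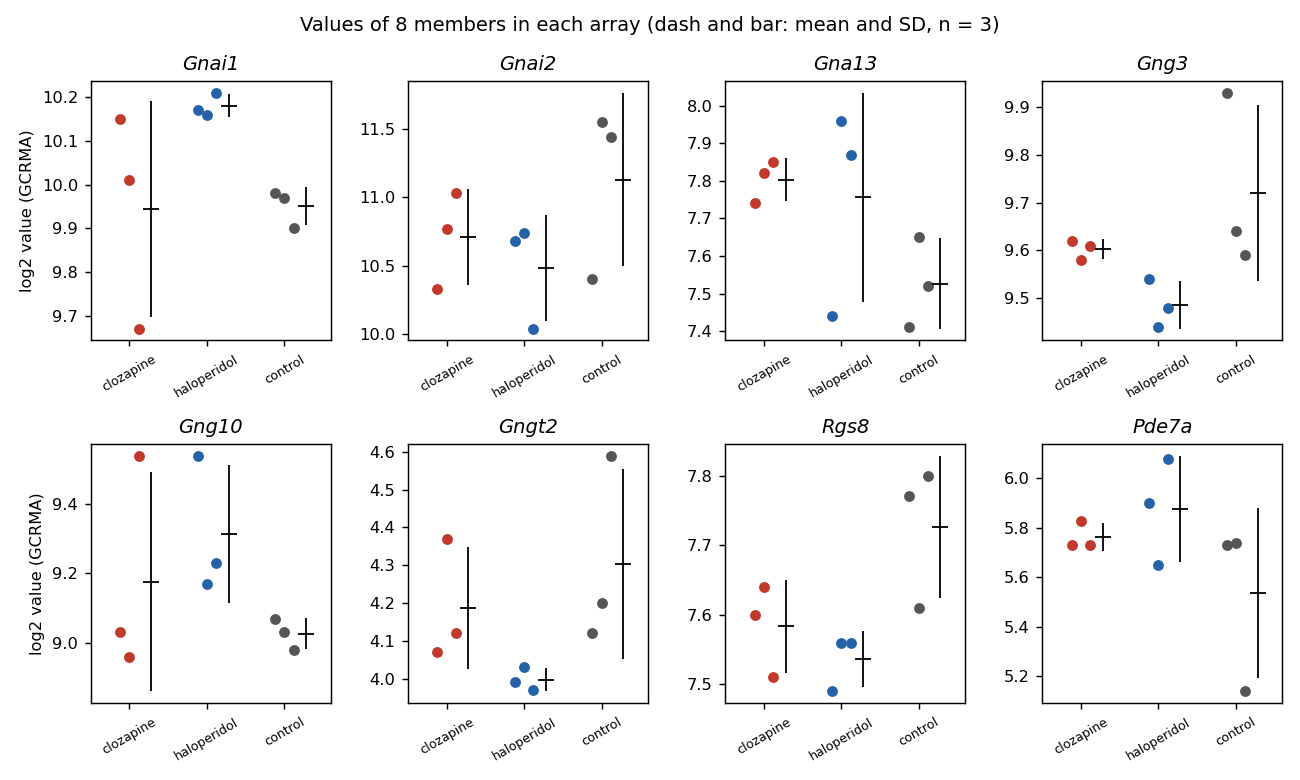
Log2 values of 8 genes in each array, with clozapine, haloperidol and control from left to right and the mean and SD (n = 3) beside the points. The vertical scales differ between panels and none starts at 0. Haloperidol points lie apart from control points in Gnai1, Gng10, Gng3, Gngt2 and Rgs8, and clozapine points lie apart from control points in Gna13.

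Adenylyl cyclases make cyclic AMP, and 6 of 7 passed the filter. Adcy6 had 6.79, 6.54 and 6.44 with clozapine, 6.42, 6.43 and 6.74 with haloperidol and 6.61, 6.45 and 5.66 in controls. Control 3 was the lowest array by 0.76, and the differences of 0.35 ± 0.24 for clozapine and 0.29 ± 0.24 for haloperidol became 0.0617 and -0.00108 without it. Adcy9, a cyclase that responds little to forskolin, had 6.48, 6.49 and 6.85 with clozapine, 6.60, 6.07 and 6.46 with haloperidol and 5.86, 6.97 and 6.54 in controls. Control 1 was its lowest and control 2 its highest array, so the controls spanned the treated arrays, and its second probe set gave 0.13 with clozapine and 0.24 with haloperidol, against 0.15 ± 0.27 and -0.08 ± 0.27 here.

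Adcy7 lay close to the filter with 3.64, 3.81 and 3.78 with clozapine, 3.70, 3.70 and 3.60 with haloperidol and 3.66, 3.70 and 3.72 in controls, and clozapine minus haloperidol was 0.08 ± 0.08. Among the others, Adcy2 had group means of 7.68 with clozapine, 7.76 with haloperidol and 7.89 in controls, Adcy8, which calcium stimulates, 4.90 with clozapine, 5.04 with haloperidol and 4.93 in controls, and Adcy3, known from olfactory neurons and neuronal cilia, 5.09 with clozapine, 5.13 with haloperidol and 5.03 in controls. Their standard deviations reached 0.37. With clozapine 4 cyclases lay above and 2 below, at a median of 0.05, and with haloperidol 3 lay above and 3 below, with a median of 0.03 that was -0.009 without control 3.

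In PKA, Prkaca and Prkacb encode catalytic subunits and the Prkar genes regulatory ones. Prkaca had 8.32, 7.91 and 7.08 with clozapine, 7.42, 8.53 and 8.22 with haloperidol and 8.16, 7.26 and 7.06 in controls. High and low arrays occurred in each group, and the differences were 0.28 ± 0.43 for clozapine and 0.56 ± 0.43 for haloperidol (limma adjusted p = 0.707). Prkacb, by contrast, had 11.78, 12.39 and 12.22 with clozapine, 12.06, 12.08 and 11.78 with haloperidol and 12.02, 12.07 and 12.38 in controls, with differences of -0.03 ± 0.18 and -0.18 ± 0.18. The type I regulatory gene Prkar1b had 9.94, 9.86 and 9.59 with clozapine, 9.48, 9.88 and 9.83 with haloperidol and 10.15, 9.91 and 9.25 in controls. Its clozapine difference was 0.03 ± 0.23, and a second probe set gave 0.73, with 8.64, 8.21 and 5.62 in controls 1 to 3. Prkar1a had means of 12.32 with clozapine, 12.42 with haloperidol and 12.28 in controls and Prkar2a 4.08 with clozapine, 4.13 with haloperidol and 4.02 in controls. The 5 genes had a median of 0.04 with clozapine and 0.11 with haloperidol, and of -0.078 and -0.039 without control 3.

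PKA can act on gene expression through the factor CREB, which binds the cyclic AMP response element TGACGTCA. RefSeq promoter windows of GRCm38.p6, from 250 bases before to 50 after a start, were at hand for 48 of the 64 genes. This palindromic element stood in 2 of their 84 windows (2.38%), against 588 of all 32851 windows (1.79%). Its shorter core, TGACG on either strand and so also inside the full element, stood in 26.2% of the members' windows and 20.8% of all. Windows of 1 gene count separately there. By gene, the core stood in 37.5% of the 48 members and 23.0% of all 27025 genes, and the full element in 2.08% and 2.03%. The 48 members had 84 windows and the 27025 genes 32851, so windows per gene differed. Both full matches were the same site in overlapping windows of Prkar1a, shown here as the 1 member with the full element. The 150 bases before its downstream start lie at chr11:109650799-109650948 on the plus strand, with the element in capitals 49 bases before that start.
Prkar1a: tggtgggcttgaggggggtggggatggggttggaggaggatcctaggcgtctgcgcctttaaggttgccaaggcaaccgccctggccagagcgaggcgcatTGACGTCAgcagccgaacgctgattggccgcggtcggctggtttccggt
Prkar1a itself differed from control by 0.04 ± 0.14 with clozapine and 0.13 ± 0.14 with haloperidol, and the match is a description of the letters only.

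Of the Pde genes, 8 of 12 passed the filter. Pde7a, which breaks down cyclic AMP, had 5.73, 5.83 and 5.73 with clozapine, 5.90, 5.65 and 6.08 with haloperidol and 5.73, 5.74 and 5.14 in controls. The clozapine arrays and controls 1 and 2 lay together, control 3 lay 0.51 below all others, and the differences of 0.23 ± 0.18 for clozapine and 0.34 ± 0.18 for haloperidol (limma adjusted p = 0.576) became 0.0279 and 0.142 without it. Pde1b, a calmodulin-dependent enzyme abundant in striatum, had 9.28, 9.32 and 9.37 with clozapine, 9.22, 9.32 and 9.14 with haloperidol and 9.54, 9.59 and 9.17 in controls. Control 3 lay with the treated arrays, below the other controls, and the differences were -0.11 ± 0.12 for clozapine and -0.21 ± 0.12 for haloperidol (adjusted p = 0.614). Leaving out control 3 widened the Pde1b differences to -0.242 for clozapine and -0.339 for haloperidol.

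Pde4b, a cyclic AMP phosphodiesterase, had 5.38, 4.61 and 4.52 with clozapine, 5.14, 4.65 and 5.50 with haloperidol and 4.87, 4.82 and 4.41 in controls. Clozapine 1 and haloperidol 1 and 3 lay above the controls and the other treated arrays did not, with differences of 0.14 ± 0.29 and 0.40 ± 0.29 for clozapine and haloperidol and -0.26 ± 0.29 between them, and a haloperidol difference of 0.20 without haloperidol 3. Pde1a, the calmodulin-dependent relative of Pde1b, had 7.35, 7.34 and 7.23 with clozapine, 7.15, 7.71 and 7.31 with haloperidol and 7.28, 7.07 and 7.17 in controls, and the haloperidol difference was 0.22 ± 0.14 here and -0.23 in its other probe set. Pde9a, specific for cyclic GMP, had 6.04, 5.84 and 6.15 with clozapine, 5.98, 5.75 and 5.92 with haloperidol and 6.08, 5.97 and 5.91 in controls, with 0.13 ± 0.11 between the drugs. Pde8a, a cyclic AMP phosphodiesterase, varied little, at 5.37, 5.35 and 5.37 with clozapine, 5.51, 5.12 and 5.44 with haloperidol and 5.37, 5.34 and 5.31 in controls. The 8 genes had 7 above and 1 below with clozapine, with a median of 0.06 that was -0.012 without control 3. With haloperidol 6 lay above and 2 below, with a median of 0.13 that was 0.053 without control 3 and 0.003 when the probe sets of each gene were averaged.

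RGS proteins shorten the life of the active alpha subunit, and 11 of 13 RGS genes passed the filter. Rgs4, which acts on inhibitory and Gq-class alpha subunits in neurons, had 8.58, 8.19 and 7.75 with clozapine, 7.58, 7.95 and 8.84 with haloperidol and 8.71, 8.02 and 6.24 in controls. Control 3 lay 1.34 below the lowest other array, and clozapine 1, haloperidol 3 and control 1 were the 3 highest. The differences of 0.52 ± 0.61 for clozapine and 0.47 ± 0.61 for haloperidol became -0.186 and -0.237 without control 3, and without haloperidol 3 the haloperidol difference was 0.11.

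Rgs8 had the narrowest range of the 11 RGS genes, with 7.60, 7.64 and 7.51 with clozapine, 7.49, 7.56 and 7.56 with haloperidol and 7.77, 7.61 and 7.80 in controls. The haloperidol arrays lay below all controls and overlapped clozapine, and the differences were -0.19 ± 0.08 for haloperidol (limma adjusted p = 0.53) and -0.15 ± 0.08 for clozapine. Its probe set is also of the kind shared within a sequence family. Rgs14, known from hippocampal neurons, had 6.61, 7.14 and 6.72 with clozapine, 6.68, 6.72 and 6.71 with haloperidol and 6.79, 6.80 and 6.03 in controls. Rgs11, a partner of Gnb5, had 5.75, 5.60 and 5.69 with clozapine, 5.64, 5.60 and 6.14 with haloperidol and 5.69, 5.79 and 4.77 in controls. In both genes control 3 was the lowest array, and the clozapine differences of 0.29 ± 0.22 and 0.26 ± 0.27 became 0.0319 and -0.0639 without it.

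Rgs2, an immediate response gene that prefers Gq-class subunits, had 8.66, 9.36 and 9.58 with clozapine, 9.52, 9.27 and 9.16 with haloperidol and 9.10, 9.09 and 9.67 in controls. Clozapine 1 was its lowest array and control 3 its highest, and the differences were -0.09 ± 0.26 for clozapine and 0.03 ± 0.26 for haloperidol (95% confidence interval -0.56 to 0.62). Rgs16 had 5.79, 5.23 and 5.63 with clozapine, 5.62, 5.07 and 5.80 with haloperidol and 6.16, 5.65 and 5.30 in controls, and Rgs3 had 5.44, 5.59 and 4.97 with clozapine, 5.35, 5.46 and 5.45 with haloperidol and 5.57, 5.55 and 5.44 in controls, with clozapine differences of -0.16 ± 0.27 and -0.19 ± 0.15. The second Rgs16 probe set gave 0.11 with clozapine. Rgs7, another partner of Gnb5, had means of 8.31 with clozapine, 8.34 with haloperidol and 8.47 in controls, Rgs5 5.69 with clozapine, 5.73 with haloperidol and 5.64 in controls, Rgs10 7.26 with clozapine, 7.18 with haloperidol and 7.25 in controls and Rgs19 6.98 with clozapine, 6.91 with haloperidol and 6.95 in controls. The 11 genes past the filter had a median of 0.01 with clozapine, 6 above and 5 below, and of -0.04 with haloperidol, 5 above and 6 below. The clozapine median was -0.01 after quantile normalization and the haloperidol median 0.063 with centred arrays.

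For the median gene of the 50, 15.6% of the variance over the 9 arrays lay between treatments, beside 18.4% over all probe sets. Values spanned over 1 log2 unit in 16 genes (32.0%), beside 20.9% of all probe sets. Control 3 was the lowest array for 17 of the 50 genes (34.0%), beside 22.4% of all probe sets, and its median deviation from the 9-array mean was -0.16, against -0.05 to 0.08 in the other arrays. Among the 17 were Gnb2, Adcy6, Pde7a, Prkaca, Prkar1a, Prkar1b, Rgs4 and Rgs14. Without control 3 the number above the controls was 19 of 50 with clozapine and 19 with haloperidol, against 27 and 26 with it, and the medians became -0.02 and -0.02. The members' share above was then 38.0% with each drug, beside 44.3% of all probe sets with clozapine and 39.6% with haloperidol. The larger excess of 3' over 5' signal in control 3 stood beside these values, and its part in them was not tested.

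Clozapine 1, haloperidol 3 and control 1 formed a second set that ran across the treatments. They were the 3 highest arrays in 10 of the 50 genes (20.0%), beside 12.2% of all probe sets, and the 3 lowest in 5 (10.0%), beside 4.39%. The 10 were Adcy2, Adcy6, Gnaz, Gnb2, Gnb4, Gng2, Prkar2a, Rgs4, Rgs5 and Rgs16, and the 5 were Adcy7, Gnai2, Gnao1, Prkacb and Rgs7. Each such set was noticed in these data and holds 1 array of every treatment. The map of deviations shows the arrays side by side.

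**Figure D4:**
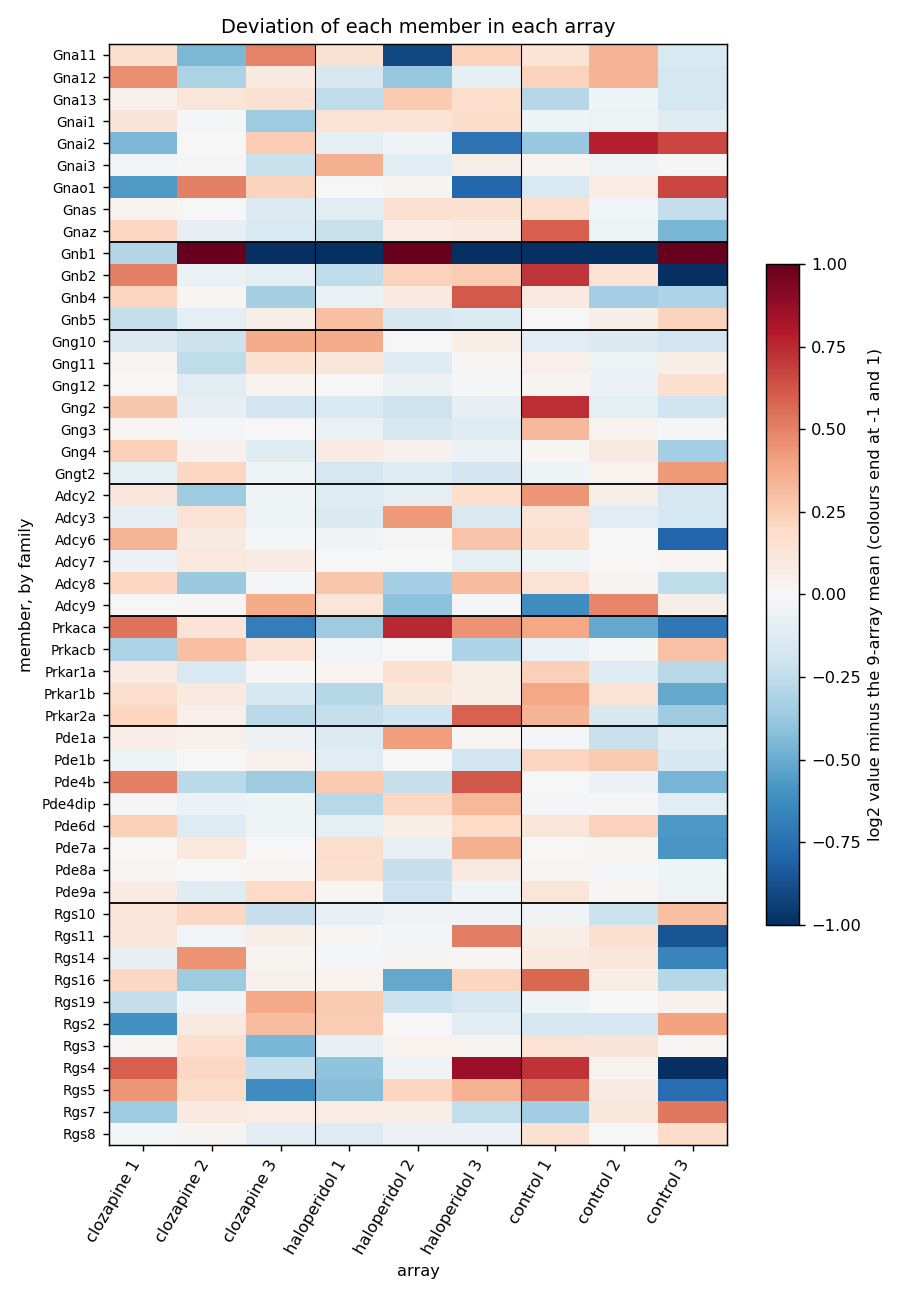
Log2 value minus the 9-array mean for the 50 genes past the filter (top to bottom, by family) in each array (columns, clozapine, haloperidol and control from left to right). Colours end at -1 and 1, which Gnb1, Gnb2 and Rgs4 exceed. Control 3 is the lowest array for 17 of the 50 genes.

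The other probe sets of the same genes gave a second reading of each transcript on the same arrays. For 18 genes, 22 further probe sets passed the filter. Of these, 11 shared the sign of the gene's chosen probe set with clozapine, 10 with haloperidol, and 11 for clozapine minus haloperidol. Signs were taken from rounded differences. Gng12, at 0.000163 and 0.0676 for clozapine minus haloperidol, was therefore not counted as shared. Across the 9 arrays 5 of the 22 pairs had a Pearson r above 0.5, among them Prkar1b (0.87), Gnb1 (0.83), Rgs5 (0.78) and Gnai2 (0.67), and 12 had an r below 0, with Gnao1 the lowest at -0.79. The points share arrays, so these values are descriptive.

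The 14 genes below the filter included most of the phototransduction genes. Gnat1 and Gnat2, the transducin alpha subunits of rods and cones, Gnb3, and Pde6a, Pde6b and Pde6g of the photoreceptor phosphodiesterase had values between 1.97 and 3.09 in all 9 arrays. Pde6d, a prenyl-binding protein also found outside the retina, had means of 6.44 with clozapine, 6.48 with haloperidol and 6.35 in controls and passed. Gna14, Gna15, Gnaq, Gnasas1, Adcy4, Pde1c, Rgs6 and Rgs9 made up the rest. Over the 14 genes the values ran from 0.95 to 3.36, and a low value there does not show that a gene is silent, since Gnaq and Rgs9 are known from forebrain neurons. Clozapine 2 was the highest array in 13 of the 14 and haloperidol 3 the lowest in 13, beside 86.0% and 89.8% of all 4969 probe sets below the filter.

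Neuronal and striatal markers were present, with 4 of 4 neuronal markers past the filter and all 3 striatal markers found of 6 listed. Penk lay between 11.26 and 11.86 in the 9 arrays. Summed striatal markers lay at 11.56 to 11.72 with clozapine, 11.79 to 12.07 with haloperidol and 11.79 to 11.87 in controls. The sum was taken on the unlogged scale, so it follows mostly Penk. Tac1 read 9.01, 9.03 and 9.04 with clozapine and 9.03, 8.90 and 8.97 in controls. Drd2 read 5.52, 5.34 and 5.31 with clozapine and 5.36, 5.37 and 4.81 in controls, so both genes overlapped the controls. Summed neuronal markers lay at 13.44 to 13.69 with clozapine, 13.65 to 13.78 with haloperidol and 13.25 to 13.76 in controls. Control 3 held the lowest neuronal sum. Haloperidol 3, with its high pituitary markers, was the highest array for 9 of the 50 genes, beside 1115 of all 7453 probe sets. Control 1 was the highest for 10 of the 50. The 9 were Gnai1, Gnb4, Adcy8, Prkar2a, Pde4b, Pde4dip, Pde7a, Rgs4 and Rgs11. Without haloperidol 3 the haloperidol difference was 0.22 in Gnai1, against 0.23 with it, and 0.24 in Pde7a, against 0.34. In Rgs11 it was 0.20, against 0.37 with that array and 0.0482 without control 3. In Prkar2a it was -0.15 against 0.11, in Adcy8 -0.01 against 0.11 and in Pde4dip 0.01 against 0.13. In Gnb4 and Pde4b it was 0.20 against 0.40, and in Rgs4 0.11 against 0.47. Among all probe sets, limma gave 680 with unadjusted p below 0.05 for haloperidol, 205 without haloperidol 3, 161 without control 2, and 504 to 752 when another of the arrays was left out. The part of either array in the values above was not tested.

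Other genes of receptor, G protein and cyclic AMP signalling were read from a list of 62 names, of which 35 were measured and 28 passed the filter. With clozapine 10 lay above and 18 below, at a median of -0.02, where 49.5% of all probe sets lay above. There limma called 0 (0.0% of all probe sets), with 0 at an unadjusted p under 0.05 (0.939%). With haloperidol 7 lay above and 21 below, with a median of -0.13, where 46.4% of all probe sets lay above. Again 0 were called (0.0%), with 2 at an unadjusted p under 0.05, beside 9.12% of all probe sets. These were Adcyap1, the precursor of the peptide PACAP, at -0.62 ± 0.25, and Pdc, which binds beta-gamma pairs, at -0.40 ± 0.17, which was -0.20 without haloperidol 3. Haloperidol arrays lay wholly below the controls in 9 of the 28, beside 19.4% of all probe sets, and wholly above in 0. The 9 included Creb1, the cyclic AMP-responsive factor named above, at -0.24 ± 0.11 (-0.151 without control 3). Also among them were the kinase anchors Akap1 and Akap12, the receptor kinase gene Grk6 and the channel gene Kcnj3. Creb1 averaged 3.82 over the 9 arrays, close to the filter of 3.448, and haloperidol 3 was its lowest array. Gpsm1, Cnga2 and Adcyap1r1, also among the 9, averaged 3.63, 3.92 and 3.95. Haloperidol 3 was the lowest array in 89.8% of all probe sets below the filter. With centred arrays the haloperidol split was 12 above and 16 below, with a median of -0.03. Drd2, the inhibitory-class dopamine receptor, lay 0.21 above the controls with clozapine and 0.28 above with haloperidol, at an SE of 0.18. Control 3 was its lowest array, and without it the Drd2 differences were 0.025 and 0.095.

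Between the drugs directly, 27 of the 50 genes lay higher with clozapine and 23 lower, with a median of 0.01, beside 0.03 and 56.4% higher over all probe sets. Of the 50, 45 lay within 0.25, beside 6687 of all 7453 probe sets. By family the medians were 0.05 for G alpha, -0.03 for G beta, 0.03 for G gamma, 0.01 for the cyclases, -0.06 for PKA, -0.06 for the Pde genes and 0.05 for the RGS genes. After centring, which moved the median of all probe sets to -0.0733, the split was 12 higher and 38 lower, and the medians of G alpha, G gamma, the cyclases and RGS were -0.051, -0.069, -0.087 and -0.054. Quantile normalization gave 25 higher and 25 lower, with 0.002 for G beta and -0.041 for the cyclases. Prkaca had the lowest difference, at -0.28 ± 0.43, and Gnb1 the highest, at 0.44 ± 1.98.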

How the data were processed

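Expression was measured in 9 unpooled forebrain samples, 3 per treatment. The deposited values are log2 expression per probe set, and GCRMA is the method named in the submitters' processing notes; its version is not given in the sources used here. The table held 12488 probe sets, of which 66 controls were left out of the tests. Names came from the platform annotation (10833 probe sets with 1 symbol, 396 with several, 1193 with none), and all 64 genes matched RefSeq with 0 symbols changed. Array medians ran from 4.01 to 4.21. The number of arrays limits the precision, and the smallest exact permutation p for 3 against 3 is 0.1.

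Differences were fitted with limma 3.58.1 in R 4.3.3 (lmFit and eBayes, two-sided) on all 9 arrays, with 1 mean per treatment and Benjamini-Hochberg adjustment over the 7453 probe sets past the filter. The median SE of a difference was 0.153. The fit was also run on simulated data with independent noise for each probe set. Those data held no array effects shared between probe sets, so the run does not cover the array patterns above. The genes, lists and tests were chosen with earlier results of these data known, so family counts and medians carry no test. Array values are given for the 5 members of lowest p on either side of 0 in each contrast, and for a set of 28 genes chosen by role, of which 18 passed the filter, 2 did not and 8 were not analysed here; genes shown as changing without control 3, such as Gnb2, were added after their values were seen. Alternatives covered filters, floors, scaling, array weights, other probe sets, a replicate block and leaving out arrays.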

Additional observations from a re-analysis of the deposited data

Results flagged for a closer look

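Control probe sets that enter no comparison carried signal in 1 array. In haloperidol 2 the 18S ribosomal RNA probe sets read 10.88 (3' end), 9.35 (5' end) and 8.97 (middle), each over 3 log2 units above the highest control array, at 2.30, 2.83 and 2.33. The reverse-strand probe set for the 5' end of Gapdh read 9.54 in the same array, against at most 6.35 in the controls. Haloperidol 2 was also 1 of the 3 arrays in which Gnb1 was high, at 11.31. Groups of 3 arrays were not tested for single outlying arrays.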

How the results depend on the processing

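No gene was called under any setting. Unadjusted counts under 0.05 for clozapine, haloperidol and clozapine minus haloperidol were 70, 680 and 271. They were 926, 1891 and 134 with array weights, whose estimation stopped before convergence, with lowest adjusted p 0.246, 0.0632 and 1. Control 2 had a weight of 13.59 there and the other arrays 0.33 to 1.21, so control 2 dominated both comparisons with control. The counts were 60, 665 and 333 with a replicate block, which also called 0. Same-numbered arrays correlated between -0.597 (haloperidol 3 with control 3) and 0.697 (clozapine 1 with control 1), so the numbers do not pair the arrays. For the genes of lowest p in each contrast, 5 of 620 values reversed: Rgs11 with clozapine at -0.077 (array weights) and -0.064 (without control 3, with or without haloperidol 3; -0.064 to 0.449 leaving out 1 array), and Adcy7 between the drugs at -0.02 (centred) and -0.032 (quantile). The genes of lowest p were picked in these same data, and several settings leave an estimate unchanged by construction. Among these are the filters, the replicate block and leaving out an array of the third group. The count of 5 is therefore no measure of stability. Other genes were not in that count. Without control 3, Gnb2 and Rgs4 turned to -0.31 and -0.186 with clozapine and to -0.35 and -0.237 with haloperidol. Over the 50 genes, leaving out 1 array turned the sign of 32 with clozapine and 27 with haloperidol. Of 504 family medians, 61 were counted as moved, and the cause was not tested. Some of these moves were smaller than the median residual SD of the 50 genes, which was 0.241. Centring put haloperidol medians at 0.125 for all 50 genes, 0.059 for G alpha, 0.039 for G gamma, 0.137 for cyclases, 0.237 for Pde and 0.063 for RGS. It put clozapine minus haloperidol at -0.094 for all 50, -0.051, -0.069, -0.162 and -0.054 for G alpha, G gamma, Pde and RGS. The 60th percentile filter gave -0.286 (G alpha) and -0.081 (cyclases) with haloperidol and 0.222 (G alpha) between drugs. A floor of 4 gave G alpha -0.129, and quantile normalization G alpha 0.077 and RGS -0.105, all with haloperidol. Array weights gave clozapine 0.04 for G gamma and -0.052 for RGS. Averaging probe sets gave haloperidol -0.132, 0.003 and 0.027 for G gamma, Pde and RGS and, between drugs, 0.098 and -0.019 for G gamma and RGS. Leaving out suffixed probe sets gave RGS 0.027 with haloperidol and -0.026 between drugs. Leaving out arrays, clozapine medians ran from -0.029 to 0.358 (G beta), -0.115 to -0.007 (G gamma) and -0.105 to 0.012 (RGS). Haloperidol medians ran from -0.21 to 0.135 (G alpha), 0.093 to 0.489 (G beta), -0.115 to 0.001 (G gamma), 0.039 to 0.262 (Pde) and -0.09 to 0.008 (RGS). Between drugs they ran from -0.065 to 0.079 (G alpha), -0.258 to 0.023 (G beta), -0.013 to 0.116 (G gamma) and -0.036 to 0.082 (RGS). Without control 3 and haloperidol 3 together, an alternative chosen after seeing the data, clozapine medians were -0.015, -0.007 and -0.064 for G beta, G gamma and RGS. Haloperidol medians were then 0.091, -0.012, -0.094, -0.029 and -0.123 for G beta, G gamma, cyclases, Pde and RGS. Under a floor of 4, Adcy7 gave no value, nor did Gnaz between the drugs, and the fit on 6 arrays had no F test. The number of arrays, 3 per group, limits the precision.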
